A study of Mus with 15 samples.

Results

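H2AK119ub (H2Aub) was examined over the 7 genes that set whether a neuron releases glutamate, GABA or glycine: Slc17a6, Slc17a7, Slc17a8, Slc32a1, Gad1, Gad2 and Slc6a5. They were chosen by name, 7 of 49943 placed mouse genes, of which 21887 are protein-coding. For each gene, the H2Aub peaks that touched its body or the 5 kb on either side were collected from every library. The length covered by peaks inside that window (covered length, in bp) and the widest single peak were then compared between groups.

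H2Aub is the mono-ubiquitin that Polycomb repressive complex 1 places on histone H2A, and broad H2Aub over a gene is known for accompanying its repression. A neuron's fast transmitter is set by a small gene battery. Vesicular glutamate transporters (Slc17a6, Slc17a7 and Slc17a8, which encode Vglut2, Vglut1 and Vglut3) load glutamate into vesicles, the glutamate decarboxylases Gad1 and Gad2 make GABA, Slc32a1 (the vesicular inhibitory amino acid transporter) loads GABA and glycine, and Slc6a5 (the glycine transporter GlyT2) supplies glycine to glycinergic terminals. Thalamic relay neurons are glutamatergic and use mainly Vglut2, while GABAergic neurons are a minority held largely in the reticular nucleus.

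The data are 11 ChIPmentation libraries, a form of ChIP-seq in which the sequencing adaptors are inserted into the immunoprecipitated chromatin by a transposase, made from whole mouse thalamus. Controls carried the floxed Maged1 allele without Cre (labelled Maged1 WT, genotype Maged1 Loxp), and Maged1 cKO mice carried it with Cre driven from the Vglut2 gene (Vglut2-Cre), so Slc17a6 is both a gene described here and the locus behind the driver. Mice of 2 to 4 months had 3 days of saline and then 5 daily injections of saline or of cocaine at 20 mg/kg, and each library pooled 3 to 4 thalami per the labels, where the study's methods give a slightly wider range. The groups were WT saline (n = 3), WT cocaine (n = 3), cKO saline (n = 3) and cKO cocaine (n = 2). Pools hold every thalamic cell type, cells with and without Cre included, so fewer cells that carry the mark and less mark per cell cannot be told apart. Maged1 itself had a covered length of 0 bp in all 11 lists, so the lists do not check the deletion.

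The peak lists differed in length from 7271 to 80713 peaks and from 4.24 to 27.6 Mb, and read depths were not used here. The lists of cKO cocaine replicate 1 and cKO saline replicate 1 stood apart, with 54653 and 80713 peaks of median width 206 and 198 bp, a highest fold enrichment over input of 31.2 and 52.6, and the longest covered lengths. In the other 9 lists the highest fold enrichment was 5.98 to 12.2. For comparisons of 2 groups with cKO libraries, the number of the 7 genes without overlap is therefore also given without these 2 lists.

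The genes of GABA and glycine transmission carried wide, recurrent H2Aub. The Vglut2 and Vglut3 genes carried less than the other 5 genes. Over all 11 libraries the covered length was 9695 ± 2055 bp for Gad1, 9050 ± 1321 bp for Slc32a1, 7065 ± 1751 bp for Slc6a5 and 4958 ± 1365 bp for Gad2 (mean ± SD, n = 11). Among the glutamate transporters it was 4454 ± 1402 bp for Slc17a7, 959 ± 678 bp for Slc17a6 and 173 ± 241 bp for Slc17a8. Of the 7 genes, 5 had a peak in all 11 libraries, against 6.76% of coding genes. Slc17a6 had one in 9, where 12.8% of coding genes had one in 9 or more, and Slc17a8 in 4, where 28.6% had one in 4 or more. Ranked by covered length among all coding genes of the same library, the median rank over libraries lay at the 99.2 percentile for Gad1, 99.1 for Slc32a1, 98.8 for Slc6a5, 98.2 for Gad2, 97.9 for Slc17a7 and 90.7 for Slc17a6. Slc17a8 sat at 0 because most lists held no peak there. From 12.6% (cKO saline replicate 3) to 58.9% (cKO saline replicate 1) of coding genes had any peak, so in most lists 1 short peak already gives a high rank. The percentile of Slc17a6 ranged from 0 to 95.2 over libraries.

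**Figure D1:**
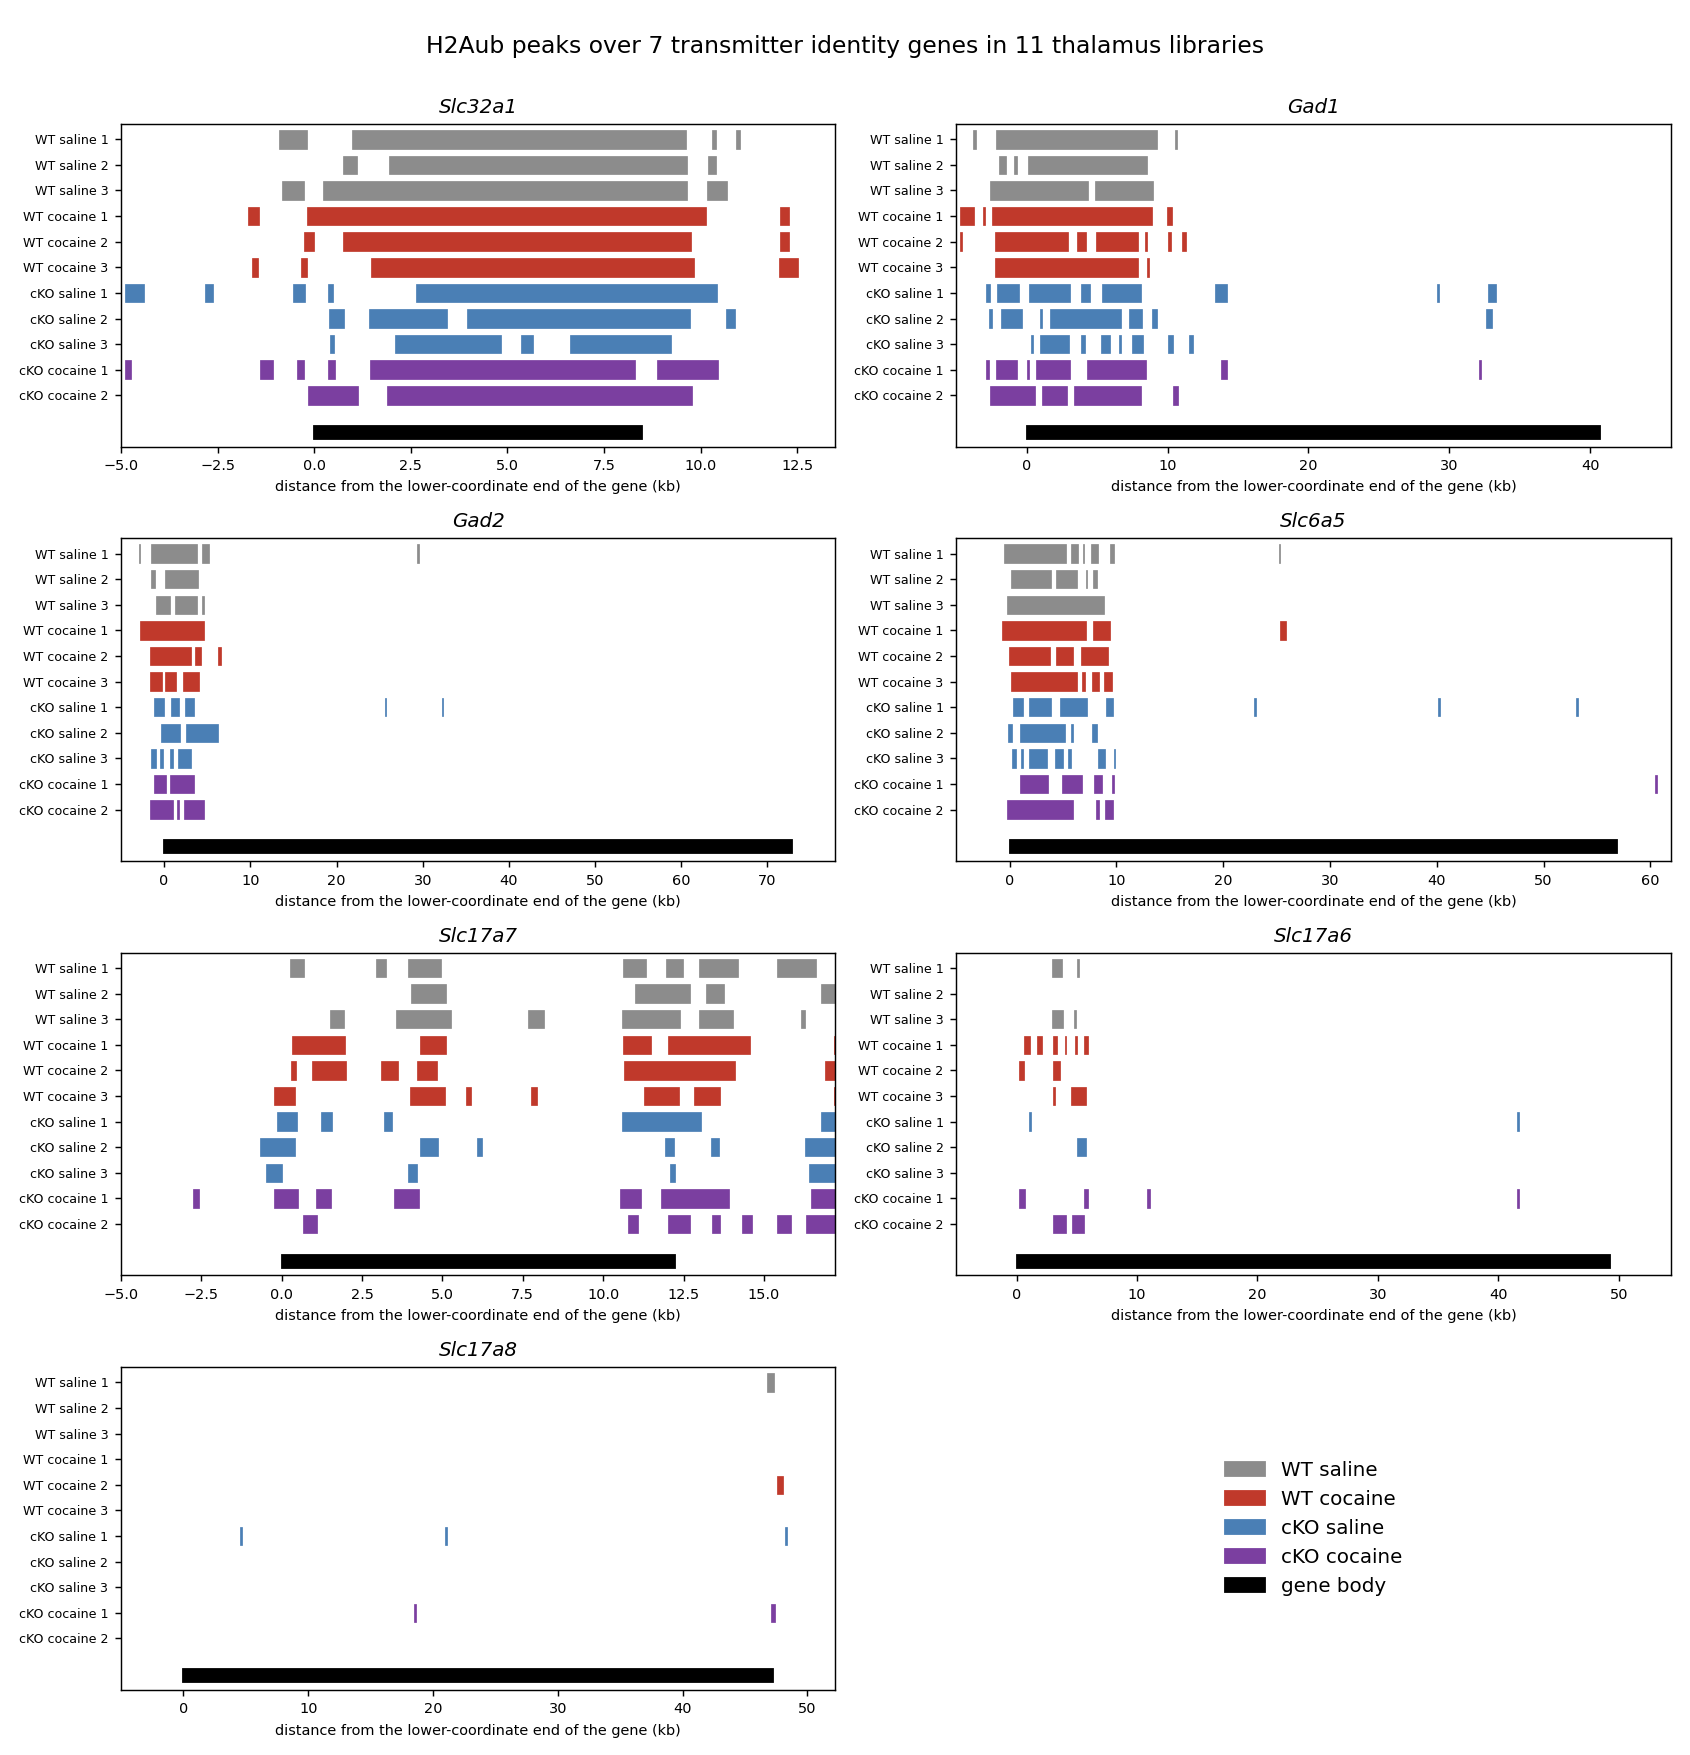
Each bar is a peak of one library (rows, colored by group) drawn against the distance from the lower-coordinate end of the gene in kb, with the gene body in black and each panel ending at the window edges. Most of the covered length of Gad1, Gad2 and Slc6a5 (95.8, 99.1 and 98.4%) lies from 5 kb before to 10 kb after that end, with isolated narrow peaks farther into the genes, the Slc32a1 domain spans the gene, and Slc17a6 and Slc17a8 hold short peaks only.

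Because the windows differ in length, the level was compared between genes as the percent of the window under peaks. Slc32a1 was highest at 49.0 ± 7.14%, above Slc17a7 at 20.0 ± 6.31% in 11 of 11 libraries with no overlap of their ranges. Slc17a7 and Gad1 (19.1 ± 4.05%) did not differ beyond their spread on this scale, as Slc17a7 was higher in 5 of 11 libraries. In bp Gad1 was covered for more (9695 ± 2055 against 4454 ± 1402 bp), and its window is 50712 bp against 22219 bp. The order went on with Slc6a5 at 10.6 ± 2.62%, Gad2 at 5.98 ± 1.65%, Slc17a6 at 1.62 ± 1.14% and Slc17a8 at 0.302 ± 0.421%. Each of these was below the gene before it in 11 of 11 libraries, except that Slc17a6 exceeded Slc17a8 in 8 of 11, although the ranges of neighbors overlapped. This scale lowers genes with a long window when their peaks gather at the lower-coordinate end, as at Gad1, Gad2 and Slc6a5. From Slc32a1 to Gad2 the order also follows rising window length (18488, 22219, 50712, 66881 and 82863 bp).

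Slc32a1 (gene ID 22348, mm10 chr2:158607260-158615747) had the most regular domain. Its covered length was 9577, 8295 and 10476 bp in WT saline, 10868, 9516 and 9153 bp in WT cocaine, 8956, 8410 and 5807 bp in cKO saline, and 9325 and 9167 bp in cKO cocaine. The low value was that of cKO saline replicate 3, which also had the shortest list, and the other 10 libraries lay between 8295 and 10868 bp. A single run of 7709 bp, chr2:158609203-158616911, was under peaks in at least 9 libraries. Within it 4060 bp were covered in all 11, the largest constant length of the 7 genes. The noncoding gene Gm14204 overlaps the window for 8464 bp at its lower-coordinate side, where 1494 to 3933 bp of the covered length lay, and 4313 to 6953 bp lay outside it.

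Gad1 (gene ID 14415, chr2:70561303-70602014) encodes GAD67, the decarboxylase behind most GABA synthesis. Its covered length was 11639, 9224 and 11070 bp in WT saline, 12844, 9636 and 10300 bp in WT cocaine, 9669, 8502 and 4796 bp in cKO saline, and 8969 and 10000 bp in cKO cocaine. Peaks sat on the first part of the gene and the flank before it, since 95.8% of the covered length lay from 5 kb before to 10 kb after the lower-coordinate end. The noncoding gene Gad1os, which overlaps the window for 7055 bp, held 1244 to 5647 bp of this length.

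Gad2 (gene ID 14417, chr2:22621015-22693877) encodes GAD65, the decarboxylase concentrated at nerve terminals. It was covered for 6646, 4241 and 4468 bp in WT saline, 7362, 5877 and 4513 bp in WT cocaine, 3518, 5896 and 2832 bp in cKO saline, and 4111 and 5071 bp in cKO cocaine. The groups overlapped throughout. Of this length 99.1% lay near the lower-coordinate end as defined for Gad1, and 578 bp were covered in all 11 libraries.

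Slc6a5 (gene ID 104245, chr7:49906984-49963864) was covered for 7800, 6146 and 9124 bp in WT saline and 10129, 7965 and 7852 bp in WT cocaine. In cKO mice it was covered for 6576, 5293 and 4103 bp after saline and 5629 and 7096 bp after cocaine. Here 98.4% of the covered length lay near the lower-coordinate end and 1998 bp were covered in all 11 libraries.

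Slc17a7 (gene ID 72961, chr7:45163921-45176139), the transporter of cortical glutamatergic neurons, was covered for 5376, 3822 and 5649 bp in WT saline, 5906, 6188 and 3962 bp in WT cocaine, 4095, 3289 and 1751 bp in cKO saline, and 5668 and 3285 bp in cKO cocaine. Its marks were scattered. Only 138 bp were covered in all 11 libraries, no peak reached 5 kb, and 39.2% of the covered length fell in the flank beyond the upper-coordinate end, where the window also holds Gfy and Pth2. Peaks over the shared parts were found in 10 libraries for Gfy and in 11 for Pth2, so part of the Slc17a7 level belongs to a stretch shared with these genes.

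Slc17a6 (gene ID 140919, chr7:51621830-51671126) was covered for 1006, 0 and 1023 bp in WT saline, 1867, 951 and 1391 bp in WT cocaine, 292, 743 and 0 bp in cKO saline, and 1229 and 2045 bp in cKO cocaine. The libraries without a peak were WT saline replicate 2 and cKO saline replicate 3, the lists with 8955 and 7271 peaks, the shortest of the 11. No base was covered in more than 6 libraries, and the widest peak of any library was 1195 bp. Slc17a8 (gene ID 216227, chr10:89574020-89621249), carried by small populations outside the main thalamic relay cells, had 511 bp in WT cocaine replicate 2, 526 bp in WT saline replicate 1, 442 bp in cKO cocaine replicate 1 and 420 bp in cKO saline replicate 1, and 0 bp elsewhere. No base of it was shared by more than 2 libraries.

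Wide single peaks separated the genes more sharply. A peak of 5 kb or more was found in 10 libraries for Slc32a1, 7 for Gad1, 5 for Slc6a5 and 2 for Gad2, and in none for the glutamate transporters. Having such a peak in at least 1 library held for 4 of the 7 genes and for 1.92% of coding genes (421 of 21887). Having one in 6 or more libraries held for 2 of the 7, Slc32a1 and Gad1, and for 0.914% of coding genes.

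**Figure D2:**
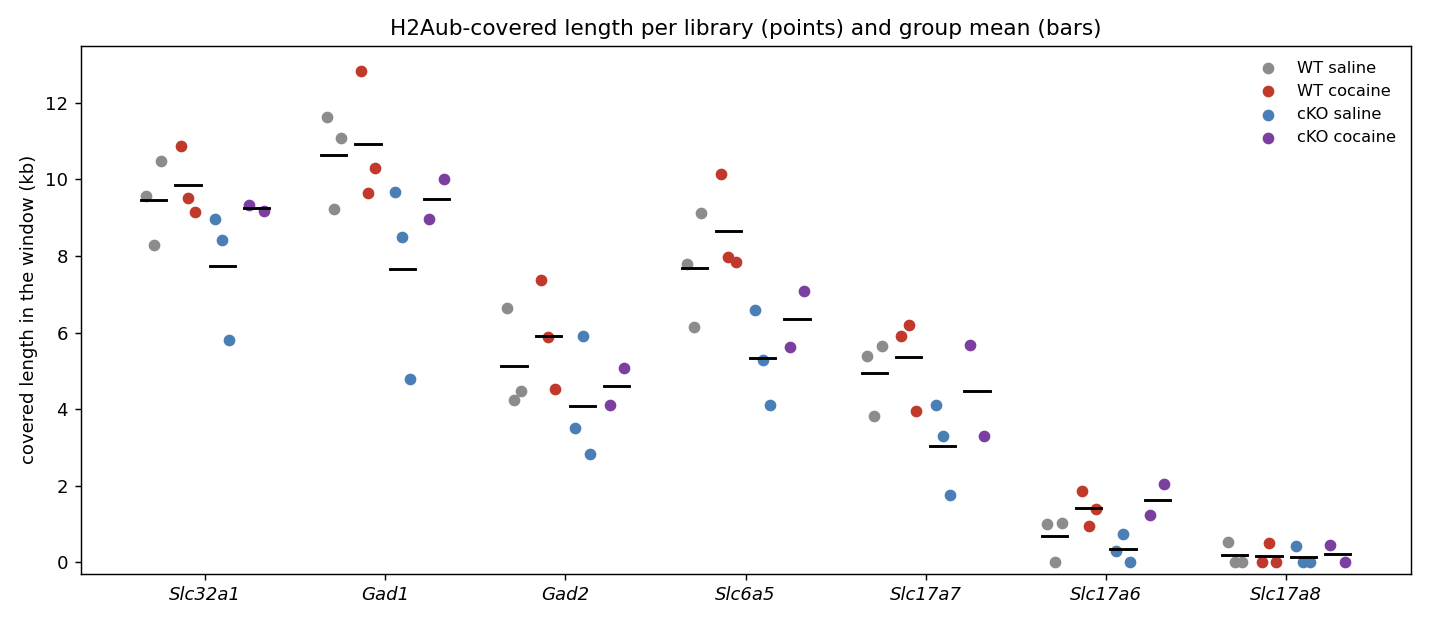
Points are the covered length of each library in kb within the window of each gene, colored by group, and black bars are group means (n = 3, 3, 3 and 2). Slc32a1 and Gad1 are highest and Slc17a8 is at or near 0, and the groups of most genes overlap.

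The first comparison asked whether repeated cocaine changed H2Aub over these genes in WT thalamus. None of the 7 had WT cocaine libraries clear of WT saline, in either direction. Across all genes 3.98% lay wholly higher and 0.0881% wholly lower in WT cocaine, and among the 4633 coding genes with a peak in 6 or more libraries 26.2% lay higher and 0.453% lower. The largest difference was at Slc6a5, 8649 ± 1283 bp against 7690 ± 1492 bp (mean ± SD, n = 3 each), which is 959 ± 1136 bp (difference ± SE, exact permutation p = 0.40). Gad2 differed by 799 ± 1125 bp (exact p = 0.50) and Slc17a6 by 727 ± 429 bp (exact p = 0.30). Slc17a7, Slc32a1 and Gad1 differed by 403, 396 and 282 bp (exact p = 0.50, 0.80 and 0.90), and Slc17a8 by -5 bp. The median difference of the 7 genes was 403 bp and that of the 4633 coding genes 570 bp, at levels that differ as well (a median over genes of the mean covered length of 4958 and 931 bp). The Slc17a6 difference was larger than the SD of either group (458 and 586 bp), and those of the other 6 were smaller than both SDs. Slc17a6 turned to -128 bp with equal numbers of peaks per list and to -185 bp at q up to 0.01. Gad1 turned to -676 bp without WT cocaine replicate 1, and Slc17a7 and Slc32a1 to -161 and -181 bp without WT saline replicate 2. Leaving out 1 library also put 1 gene wholly higher in WT cocaine in 4 cases. It was Slc17a6 without WT cocaine replicate 2 (4.99% of all genes and 30.5% of the 4633), Slc17a7 without WT cocaine replicate 3 (8.26% and 48.4%), Gad2 without WT saline replicate 1 (6.9% and 47.7%) and Slc6a5 without WT saline replicate 3 (4.85% and 31.5%). With 3 libraries against 3 the exact two-sided test cannot go below p = 0.10, and after Benjamini-Hochberg adjustment over all 49943 genes every p was 1 in this and the following comparisons of groups.

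The total over the 7 genes differed by less than its spread, while the lists were on average longer after cocaine. Summed over the 7 genes it was 38703 ± 6052 bp in WT saline and 42264 ± 6067 bp in WT cocaine. As a share of the whole list it was 0.484 ± 0.0946% in WT saline and 0.304 ± 0.0472% in WT cocaine, with values of 0.384, 0.572 and 0.497% against 0.284, 0.271 and 0.358%. The cocaine lists were all below the saline lists on this scale. Per Mb of its list, the difference had the opposite sign for Slc17a7, Slc32a1, Gad1, Gad2 and Slc6a5, and the WT cocaine libraries lay wholly below WT saline for 3 genes, Slc17a7, Gad1 and Gad2 (exact permutation p = 0.10 each, the smallest possible), where 0.711% of all genes and 4.32% of the 4633 coding genes did so. Wholly higher on that scale were none of the 7, 2.05% of all genes and 12.1% of the 4633. List length moved with treatment in WT mice, from 5.55 to 11.1 Mb after saline and from 10.4 to 17.2 Mb after cocaine, and its part in either scale was not tested.

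**Figure D3:**
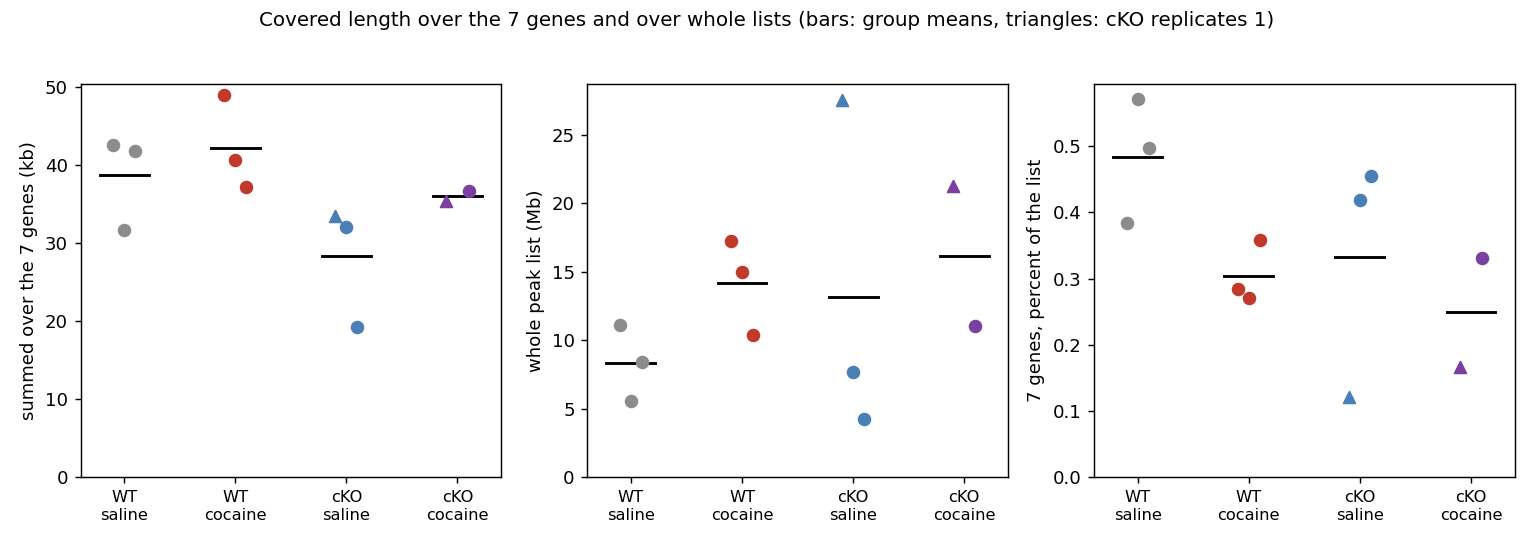
From left to right, the panels give the length summed over the 7 genes in kb, the length of the whole peak list in Mb, and the first as a percent of the second, with 1 point per library, triangles for the cKO replicates numbered 1 and bars for group means. WT cocaine lists are longer than most WT saline lists while the 7-gene sum overlaps, so the share falls from 0.484 to 0.304%.

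Base by base, a few stretches did split by treatment in WT mice. Bases under a peak in all 3 WT cocaine lists and in no WT saline list made up 936 bp of the 61730 bp covered in either group over the 7 genes, or 1.52%, and the reverse made up 116 bp, or 0.188%. Over whole lists these shares were 1.80% and 0.0649%. Most of the length lay at Slc32a1 (326 bp) and Slc6a5 (301 bp), with 173 bp at Gad2, 136 bp at Slc17a7 and 0 bp at Gad1, Slc17a6 and Slc17a8. The longest single stretch at Slc32a1, chr2:158619323-158619551 (229 bp), lies beyond the upper-coordinate end of the gene and was covered in the 3 WT cocaine lists and in none of the other 8. A second stretch at the same gene, chr2:158617551-158617666 (116 bp), went the other way, being covered in all WT saline lists, in no WT cocaine list and in both cKO replicates 1. These stretches were picked after their values were seen.

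The second comparison asked the same in Maged1 cKO thalamus. Slc17a6 and Slc32a1, 2 of the 7, had cKO cocaine libraries wholly above cKO saline, where 2.1% of all genes and 9.58% of the 4633 coding genes did so, and none of the 7 lay wholly lower, beside 0.0641% and 0.173%. Slc17a6 was covered for 1637 ± 577 bp after cocaine (n = 2) and 345 ± 374 bp after saline (n = 3), a difference of 1292 ± 462 bp (exact permutation p = 0.10, the smallest possible). Slc32a1 differed by 1522 ± 975 bp (exact p = 0.30), and its lowest cocaine library was 9167 bp against a highest saline library of 8956 bp. Gad1, Slc17a7, Slc6a5, Gad2 and Slc17a8 differed by 1829, 1432, 1039, 509 and 81 bp with overlapping groups (exact p from 0.40 to 0.80). The median difference was 1292 bp for the 7 genes and 414 bp for the 4633 coding genes, on the median levels of 4958 and 931 bp given above, so the difference of the 7 was larger in bp and smaller relative to their level.

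The split at Slc17a6 rested on different places. In cKO cocaine replicate 1, peaks lay at 182, 5619, 10860 and 41537 bp from the lower-coordinate end, and in replicate 2 at 3048 and 4627 bp, so no base of Slc17a6 was covered in both and in none of the cKO saline lists. Without both replicates numbered 1, which leaves 1 cocaine library, the libraries did not overlap for 4 of the 7 genes (Slc17a6, Slc32a1, Gad1 and Slc6a5), and for 13.1% of all genes and 65.0% of the 4633. Per Mb of the list no gene of the 7 lay wholly above cKO saline, where 2.54% of all genes and 11.5% of the 4633 did so, and none did with every list reduced to its 7271 strongest peaks, where 0.388% and 2.5% did so. With equal numbers of peaks the differences turned to -175 bp at Slc17a6 and -1877 bp at Slc32a1, Slc17a6 turned to -273 bp at q up to 0.01, and Slc32a1 to -296 bp per Mb of the list. Leaving out 1 library also gave 4 genes in 3 cases. All genes and the 4633 lay wholly higher for 4.61% and 17.7% without cKO cocaine replicate 1, 17.3% and 38.4% without cKO cocaine replicate 2, and 10.3% and 57.6% without cKO saline replicate 1.

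The test of the difference between genotypes set the cocaine effect in cKO against that in WT. It was 565 bp larger in cKO for Slc17a6, 1029 bp for Slc17a7, 1125 bp for Slc32a1 and 1547 bp for Gad1, and 290.0 bp smaller for Gad2. With treatment permuted within genotype, the exact permutation p ran from 0.55 to 0.945 over the 7 genes. An unadjusted p of 0.05 or less was found for 0.232% of all genes (116 of 49943) and 0.604% of the 4633 coding genes. No gene passed after adjustment. Without both cKO replicates numbered 1 the exact p ran from 0.517 to 1.

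The third comparison asked what loss of Maged1 from Vglut2 cells changed without cocaine. All 7 genes had a lower mean in cKO saline than in WT saline, and for none were the groups clear of each other, where 0.304% of all genes lay wholly lower and 0.318% wholly higher, and 1.73% and 1.36% of the 4633 coding genes. The differences were -2989 ± 1640 bp at Gad1, -2366 ± 1119 bp at Slc6a5 and -1904 ± 892 bp at Slc17a7 (exact permutation p = 0.20 each). They were -1725 ± 1159 bp at Slc32a1 (exact p = 0.30), -1036 ± 1204 bp at Gad2, -331 ± 401 bp at Slc17a6 and -35.3 ± 224 bp at Slc17a8. The median was -1725 bp, while that of the 4633 coding genes was 263 bp, on the median levels of 4958 and 931 bp given above. Both medians include cKO saline replicate 1, the longest list at 27.6 Mb, and medians without it are not given. Without cKO saline replicate 1, 3 of the 7 (Slc17a7, Gad1 and Slc6a5) lay wholly below WT saline, against 2.15% of all genes and 15.0% of the 4633. The same 3 did so with 7271 peaks per list, against 1.01% and 7.25%. Without WT saline replicate 2 the count was 5 (all but Gad2 and Slc17a8), beside 1.31% of all genes and 5.85% of the 4633, and without cKO saline replicate 2 it was 1 (Gad2), beside 0.885% and 4.94%. Without cKO saline replicate 1, the cKO saline lists spanned 4.24 and 7.67 Mb against 5.55 to 11.1 Mb in WT saline. That replicate, at 27.6 Mb, was present in the calls without WT saline replicate 2 and without cKO saline replicate 2. The part of list length in the difference was not tested.

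The fourth comparison set cKO cocaine against WT cocaine. Slc6a5 alone of the 7 lay wholly lower in cKO, at 6363 ± 1037 bp (n = 2) against 8649 ± 1283 bp (n = 3), a difference of -2286 ± 1043 bp (exact permutation p = 0.10, the smallest possible). Across all genes 1.42% lay wholly lower and 2.6% wholly higher, and of the 4633 coding genes 7.86% and 7.99%. Gad1, Gad2, Slc17a7 and Slc32a1 differed by -1442, -1326, -876 and -600 bp, and Slc17a6 and Slc17a8 by 234 and 50.7 bp, all with overlapping groups (exact p from 0.40 to 1). Per Mb of the list Slc6a5 overlapped, and Slc17a7 was the 1 gene wholly lower in cKO, beside 1.98% of all genes and 12.1% of the 4633. Without cKO cocaine replicate 1, Slc17a7 joined Slc6a5 below WT cocaine, where 5.51% of all genes and 37.3% of the 4633 did so, and Slc17a6 lay above, where 4.54% and 12.0% did so. The number lower was 2 without WT cocaine replicate 2, beside 2.0% of all genes and 10.1% of the 4633. It was 4 without WT cocaine replicate 3, beside 3.83% and 19.8%, and 3 without cKO cocaine replicate 2, beside 2.76% and 14.8%. Bases under a peak in all WT cocaine lists and in no cKO cocaine list made up 2.61% of those covered over the 7 genes and 1.31% over whole lists, and the reverse 0.908% and 0.896%. The saline and cocaine comparisons within a genotype and those between genotypes share libraries and do not count as separate evidence.

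At Gad1 the widest peak, unlike the covered length, did not overlap between genotypes. It was 11375, 8468 and 6944 bp in WT saline and 11346, 5189 and 10128 bp in WT cocaine. The widest peak was 2863, 5014 and 2067 bp in cKO saline and 4201 and 4746 bp in cKO cocaine. The 6 WT libraries (5189 to 11375 bp) were thus all above the 5 cKO libraries (2067 to 5014 bp), although the 6 WT covered lengths (9224 to 12844 bp) overlapped the 5 cKO ones (4796 to 10000 bp). A widest peak with WT wholly above cKO was found for 0.0541% of all genes and 0.216% of the 4633 coding genes, and the reverse for 0.02% and 0.0863%, all with the 2 lists that stood apart included. The gap at Gad1 was only 175 bp, between WT cocaine replicate 2 and cKO saline replicate 2. The same gap was found at q up to 0.01 and with equal numbers of peaks. These settings drop whole peaks and leave widths as they are, so this is a weak check. Leaving out libraries can only keep or widen such a gap and was not used as a check. WT and cKO libraries overlapped for the widest peak of the other 6 genes, although at Slc32a1 a peak of 5 kb or more was found in 6 of 6 WT and 4 of 5 cKO libraries, and at Slc6a5 in 4 of 6 and 1 of 5. Over whole lists, peaks of 5 kb or more lay at 130 to 378 coding genes per WT list and at 71 to 255 per cKO list, and the part of this in the counts was not tested. This comparison over both treatments was chosen after the values were seen and was given no test.

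Peak strength showed the lists that stood apart directly at these genes. In the 9 other lists the highest fold enrichment of a peak, the authors' ratio of signal to input, was 3.41 to 4.95 over the 7 genes. In the cKO replicates numbered 1 it was 9.32 and 11.4 at Slc17a7, 11.2 and 7.70 at Slc32a1, 8.10 and 8.16 at Gad1 and 8.55 and 6.35 at Slc17a6 (cocaine and saline). At Gad2, Slc6a5 and Slc17a8 it was 4.99 and 6.36, 4.83 and 5.71, and 3.69 and 3.70. The strong peak at Slc17a7 covered the lower-coordinate end of the gene (chr7:45163682-45164412 in cKO cocaine replicate 1) and overlapped weaker peaks in 6 of the 9 other lists. That at Slc17a6, chr7:51663367-51663511 and chr7:51663368-51663519, lay inside the body far from the other peaks of the gene and was found in both replicates numbered 1 and in none of the 9 other lists.

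**Figure D4:**
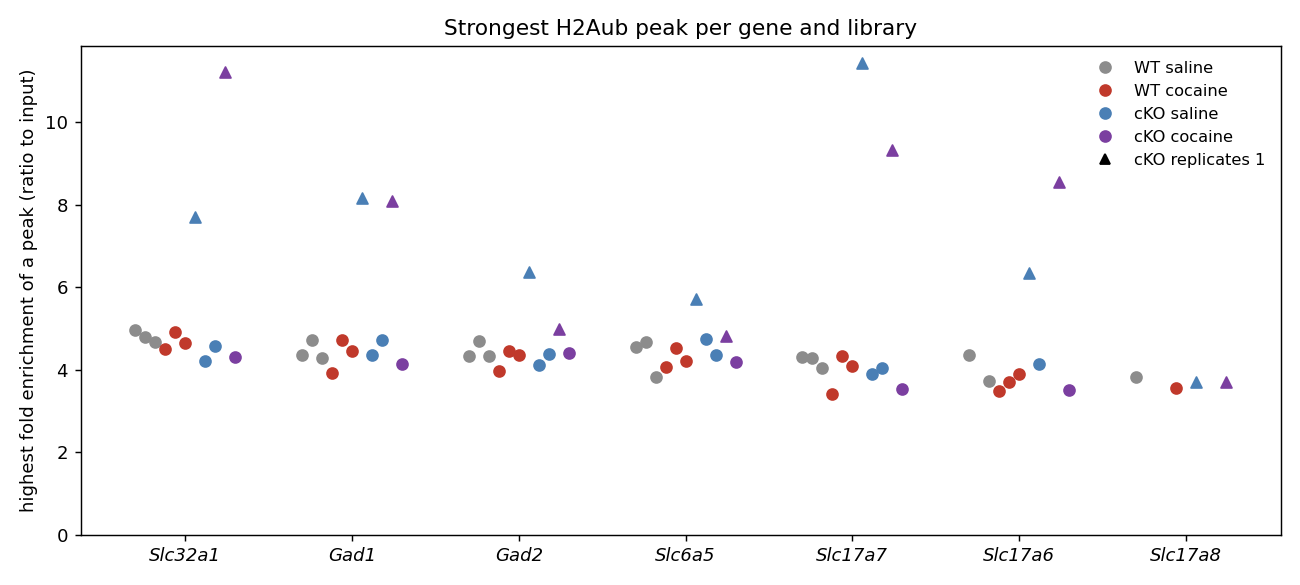
The vertical axis is the highest fold enrichment over input of any peak in the window, with 1 marker per library that had a peak, colored by group, and triangles for the cKO replicates numbered 1. The circles lie between 3.41 and 4.95 for all 7 genes, while triangles reach 11.4 at Slc17a7 and 11.2 at Slc32a1.

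In bp, the other genes of transmitter handling all had a shorter mean covered length than Gad2, the lowest of the 4 GABA and glycine genes above. As a percent of the window this did not hold for all of them, as given below. Of 13 genes of glutamate uptake and metabolism, 1 had a peak in all 11 libraries, and the median over genes of the mean covered length was 86.5 bp. The astrocytic glutamine transporter Slc38a3 was covered for 2463 ± 1474 bp (11 libraries) and the glial glutamate transporter Slc1a3 for 615 ± 540 bp (10 libraries). Of 6 genes of GABA uptake and breakdown, Slc6a13 (1676 ± 1566 bp, 11 libraries) and Slc6a11 (2380 ± 1856 bp, 10 libraries), both GABA transporters, led. Of 6 glycine genes, Shmt2, a mitochondrial serine hydroxymethyltransferase, had 3860 ± 1075 bp in 11 libraries and Gldc, of the glycine cleavage system, 1071 ± 818 bp in 10. None of these lists, nor that of other transmitters, held a peak of 5 kb or more in any library.

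Of 14 genes for acetylcholine, monoamines and histamine, 4 had a peak in all 11 libraries. Chat, which makes acetylcholine, had 3476 ± 1542 bp and Slc18a3, the vesicular acetylcholine transporter nested at the same locus, 3261 ± 1338 bp. As a mean percent of the window, Slc18a3 (26.3%) and Shmt2 (25.2%) lay above Gad1 (19.1%), and Slc38a3 (8.85%) above Gad2 (5.98%). The other genes named from these lists lay below Gad2. Of the 6 other Slc17 family genes none had a peak in 6 or more libraries, and Slc17a3 (3 libraries) and Slc17a5 (2 libraries) led.

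The same count was made for these lists in WT mice. WT cocaine libraries lay wholly above WT saline for 6 of 14 genes of other transmitters (Chat, Slc18a3, Dbh, Slc18a2, Slc6a3 and Tph1), for 1 of 6 GABA handling genes (Slc6a13), for 1 of 6 glycine handling genes (Gldc), and for 0 of 13 glutamate handling and 0 of 6 Slc17 genes, and none lay wholly lower, beside the 3.98% of all genes and 26.2% of the 4633 coding genes given above. Chat and Slc18a3 share a locus and had identical WT saline values, so they are not separate cases. Per Mb of the list, the calls of Chat, Slc18a3, Dbh, Slc18a2 and Slc6a13 were lost, and wholly higher were 3 of the 14 (Th, Slc6a3 and Tph1) and Gldc, beside 2.05% of all genes and 12.1% of the 4633, while Shmt2 lay wholly lower. Chat was covered for 2335, 2700 and 2717 bp after saline and 4865, 6009 and 3870 bp after cocaine. Slc6a13 was covered for 2196, 454 and 308 bp after saline and 5025, 2883 and 3287 bp after cocaine. Each difference had the smallest exact permutation p that 3 against 3 libraries allow, 0.10, and the lists were not tested against the 7 genes.

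Gene by gene, the covered length per length of list was most alike, over 11 libraries, between Slc32a1 and Hoxa6 (Pearson r = 0.993) and Hoxa7 (0.993), between Gad1 and Onecut1 (0.990) and Irx5 (0.985), and between Slc6a5 and Nhlh2 (0.981) and Onecut2 (0.979). For Gad2 the closest genes were Npr3 (0.982) and Hoxc8 (0.960), for Slc17a7 Rax (0.949) and Cldn3 (0.942), and for Slc17a6 Fos (0.912) and Mycn (0.907). These coefficients describe points that share a list length in the denominator, and the 2 lists that stood apart are among them.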

How the data were processed

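H2AK119ub ChIPmentation was measured in 11 libraries, and the 4 total-input libraries were not analysed here. Per the labels and the study's methods, the authors trimmed reads with Cutadapt, aligned them to mm10 with Bowtie2 2.3.4.1 and called broad peaks against input with MACS2 2.1.1.20160309.3, 1 list per library. The deposited lists give peak coordinates, a score, the fold enrichment (a ratio to input) and −log10 p and q values, with q up to 0.0997. Read counts and depth are not in the values used, so no counting interval was given and list length stands in.

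Gene positions came from RefSeq GRCm38.p6 (the mm10 coordinates), without strand or sequence. All 45 symbols of the fixed pathway lists and the 7 genes matched. Overlaps were computed in Python 3.11.15 with NumPy 2.4.6 and pandas 2.3.3. Groups were compared by two-sided exact permutation tests of the mean difference, with 20 arrangements for 3 against 3 and 10 for 2 against 3. The difference between genotypes had 200 arrangements, with treatment permuted within genotype. These p-values were adjusted by Benjamini-Hochberg over 49943 genes. Groups were also compared by whether their libraries overlapped. The scripts were tested on simulated data. Alternatives were q at most 0.05 or 0.01, equal numbers of peaks, other windows, peaks at least 50% inside, scaling per Mb, leaving out libraries and a replicate block. Named genes were the 7, the 2 genes of each pathway list with peaks in most libraries and the 2 coding genes most alike in profile. Dbh, Slc18a2, Slc6a3, Tph1 and Th fall outside this rule and were named after their values were seen, to spell out counts of genes without overlap. The genes and lists were chosen with earlier results of these data known. The paper describes the replicates as independent and each as a pool of thalami. The permutation p-values set the observed difference against that of every rearrangement of these libraries.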

Additional observations from a re-analysis of the deposited data

How the results depend on the processing

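The alternatives gave 521 values for 37 results. These results were 24 differences of single genes, the counts of genes without overlap, the summed differences and the count for the difference between genotypes. Of the values, 453 were taken as unchanged: they kept the direction of a gene, stayed near the count or moved a sum by less than its spread. For a sum per Mb of the list, keeping its sign was enough. Every value with peaks at least 50% inside the window and with 10 kb flanks was unchanged in this sense. The exact p of a difference between 2 groups cannot fall below 0.10, so staying above 0.05 says nothing of stability. The cause of the changes below was not tested.

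Per Mb of the list, the summed WT difference (3561 bp) became -1796 bp per Mb and the cKO one (7703 bp) -828 bp per Mb. Single genes turned in WT at Slc17a7 (-236), Slc32a1 (-485), Gad1 (-549), Gad2 (-213) and Slc6a5 (-339.8), and in cKO at Slc17a7 (-48.2), Slc32a1 (-296), Gad1 (-200.2), Gad2 (-195) and Slc6a5 (-179). Counts without overlap became 3 lower in WT cocaine, 0 higher in cKO cocaine than cKO saline and 1 lower in cKO saline than WT saline (Slc17a7, beside 0.945% of all genes and 5.91% of the 4633 coding genes), and the 1 lower in cKO cocaine than WT cocaine was Slc17a7 in place of Slc6a5.

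With equal numbers of peaks, the summed cKO difference was -2627 bp and that of cKO cocaine against WT cocaine -20607 bp. Slc17a6 and Gad1 turned in WT (-128 and -581 bp), Slc17a6, Slc32a1, Gad1 and Gad2 in cKO (-175, -1877, -482 and -374 bp), and Slc17a6 between genotypes after cocaine (-420 bp). Counts were 0 higher in cKO cocaine, 3 lower in cKO saline than WT saline and 2 lower in cKO cocaine than WT cocaine (Slc17a7 and Slc6a5, beside 2.28% and 16.3%). At q up to 0.01 the first 2 of these were 1 (Slc32a1, beside 0.755% and 4.66%) and 2 (Gad1 and Slc6a5, beside 0.158% and 0.928%), Slc17a6 turned in WT, cKO, saline and cocaine comparisons (-185, -273, 66.3 and -21.2 bp), and Gad1 turned in WT (-676 bp, and -55.0 bp at q up to 0.05). Without flanks, Gad1 and Gad2 turned in WT (-560 and -75.0 bp), Gad2 in cKO (-79.7 bp), and 1 gene, Gad1, was lower in cKO saline (beside 0.272% and 1.9%).

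Without both cKO replicates numbered 1, counts were 4 higher in cKO cocaine than cKO saline, 3 lower in cKO saline than WT saline, and 1 higher and 2 lower in cKO cocaine than WT cocaine. Leaving out each library gave ranges of 0 to 1 higher and 0 to 0 lower in WT cocaine, 2 to 4 higher and 0 to 0 lower in cKO cocaine, 0 to 0 higher and 0 to 5 lower in cKO saline than WT saline, and 0 to 1 higher and 1 to 4 lower in cKO cocaine than WT cocaine. Summed differences ranged from 73.7 to 6107 bp in WT, from 3189 to 10308 bp in cKO, from -13874 to -5873 bp between saline groups and from -8792 to -2889 bp between cocaine groups. Directions turned for Gad1 (-676 to 928 bp), Slc17a7 (-161 to 1098 bp) and Slc32a1 (-181 to 910 bp) in WT, without WT cocaine replicate 1 or 2 or WT saline replicate 2, for Gad2 in cKO without cKO saline replicate 3 (-116 to 1416 bp), and for Slc17a6 (-174 to 642 bp) and Slc17a7 (-2067 to 316 bp) between cocaine groups without cKO cocaine replicate 2.

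Same-numbered WT libraries deviated from their group means with correlations of 0.455, 0.165 and -0.246 over genes, so the numbers were not taken as pairs. In cKO mice they were 0.712 and 0.732, but over 2 pairs only. With a replicate block (sign flips of same-numbered differences) the directions stayed except Gad2 in cKO, -116 bp, and its p could not fall below 0.25 with 3 pairs or 0.50 with 2, so the block could not change a call. The number of libraries per group and the unknown read depth limit all differences given here.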
